A study of Mus musculus with 8 samples.

Results

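The Slit ligands and their Robo receptors were examined as 7 genes, *Slit1*, *Slit2*, *Slit3*, *Robo1*, *Robo2*, *Robo3* and *Robo4*. Their members were the CpGs listed in all 8 deposited tables from 5 kb upstream of the first transcription start site (TSS) of each gene to the gene end, in the mouse build mm9. Promoter CpGs, from 1 kb upstream to 0.5 kb downstream of each TSS of a protein-coding transcript, were kept apart from gene bodies. This gave 562 of the 757812 listed CpGs, and 430 of them had a coverage of 10 or more calls in the 8 libraries, against 612975 in the series. The family was proposed with the lower 5-methylcytosine (5mC) at the *Slit1* promoter in view, that is, it was chosen by the oxidative bisulfite levels of shTet3 and shScr libraries, so the oxidative bisulfite differences below are a description of these libraries, calls included. Libraries of the same cells converted without oxidation read that 5mC too, so their differences and p-values are not independent of this choice.

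Slit proteins are secreted guidance cues, and Robo1 and Robo2 are membrane receptors that bind them. Slit-Robo signalling is best known for repelling axons from the midline of the nervous system. It also steers migrating neurons and keeps neural progenitors in place. Robo3 is the divergent member that counteracts midline repulsion in commissural axons, and Robo4 is the receptor of blood vessel endothelium.

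Neural precursor cells (NPCs) were derived from A2lox.cre mouse embryonic stem cells, a male line of the strain 129P2/OlaHsd, carrying a doxycycline-inducible short hairpin RNA at one docking site and grown from selected clones. The shScr cells carried a non-targeting hairpin and the shTet3 cells a hairpin against *Tet3*, one of the dioxygenases that oxidise 5mC to 5-hydroxymethylcytosine (5hmC), and both received 2 µg/ml doxycycline for 5 days. From 100 ng of DNA per sample, one portion was oxidised before bisulfite conversion (oxBS, which reads 5mC) and the other was converted directly (BS, which reads 5mC plus 5hmC), after MspI digestion at CCGG sites. Each of the 4 groups (shScr oxBS, shTet3 oxBS, shScr BS and shTet3 BS) held 2 libraries. Nothing in the labels tells whether these came from separate cultures, so p-values of limma and the F test measure the spread between these samples. The q values of logistic regression come from counts pooled within a group and take in counting error only.

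RNA was not among the files, so neither the *Tet3* level nor neural markers could be checked here. The libraries held 42516767 to 61865967 methylation calls with a median coverage of 43 to 54 per CpG. The mean level over all listed CpGs was 27.1% and 32.2% in the shScr oxBS libraries against 22.5% and 22.9% in the shTet3 oxBS libraries. In BS it was 27.5% and 32.5% in shScr against 22.8% and 23.2% in shTet3, so shScr replicate 1 lay below shScr replicate 2 in both. Calls were not corrected for PCR duplicates, and the intervals below cover counting error only.

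The family fell into 2 kinds of sequence. Promoters of *Slit2*, *Slit3*, *Robo1* and *Robo2* were almost free of methylation, the *Slit1* promoter stood at an intermediate level, and the gene bodies were methylated apart from those of *Slit2* and *Robo3*. Over the 8 libraries the mean promoter level was 24.2% for *Slit1* (42 CpGs), 5.65% for *Slit2* (36 CpGs), 1.23% for *Slit3* (44 CpGs), 0.270% for *Robo1* (16 CpGs) and 1.51% for *Robo2* (14 CpGs). The median over 12433 promoters of the series was 0.405%, and 88.8% of them lay below *Slit1*. At a coverage of 10 or more in all libraries, the *Robo3* promoter held 3 CpGs alone, with a mean of 37.0%, and the *Robo4* promoter none. Those of *Robo3* lay at −730 to −677 bases from its first TSS. Its 9 CpGs at 27 to 106 bases, with coverages of 5 to 37, had means between 2.2% and 17.8% in the libraries. Gene bodies had mean levels of 58.2% for *Slit1*, 16.8% for *Slit2*, 61.8% for *Slit3*, 44.8% for *Robo1*, 61.0% for *Robo2*, 33.1% for *Robo3* and 58.2% for *Robo4*, beside a median of 56.5% over 10601 genes. The 1501 bases around the first TSS held 96 CpGs in *Slit3*, 79 in *Slit1*, 78 in *Slit2*, 65 in *Robo3*, 63 in *Robo1*, 60 in *Robo2* and 14 in *Robo4*.

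**Figure D1:**
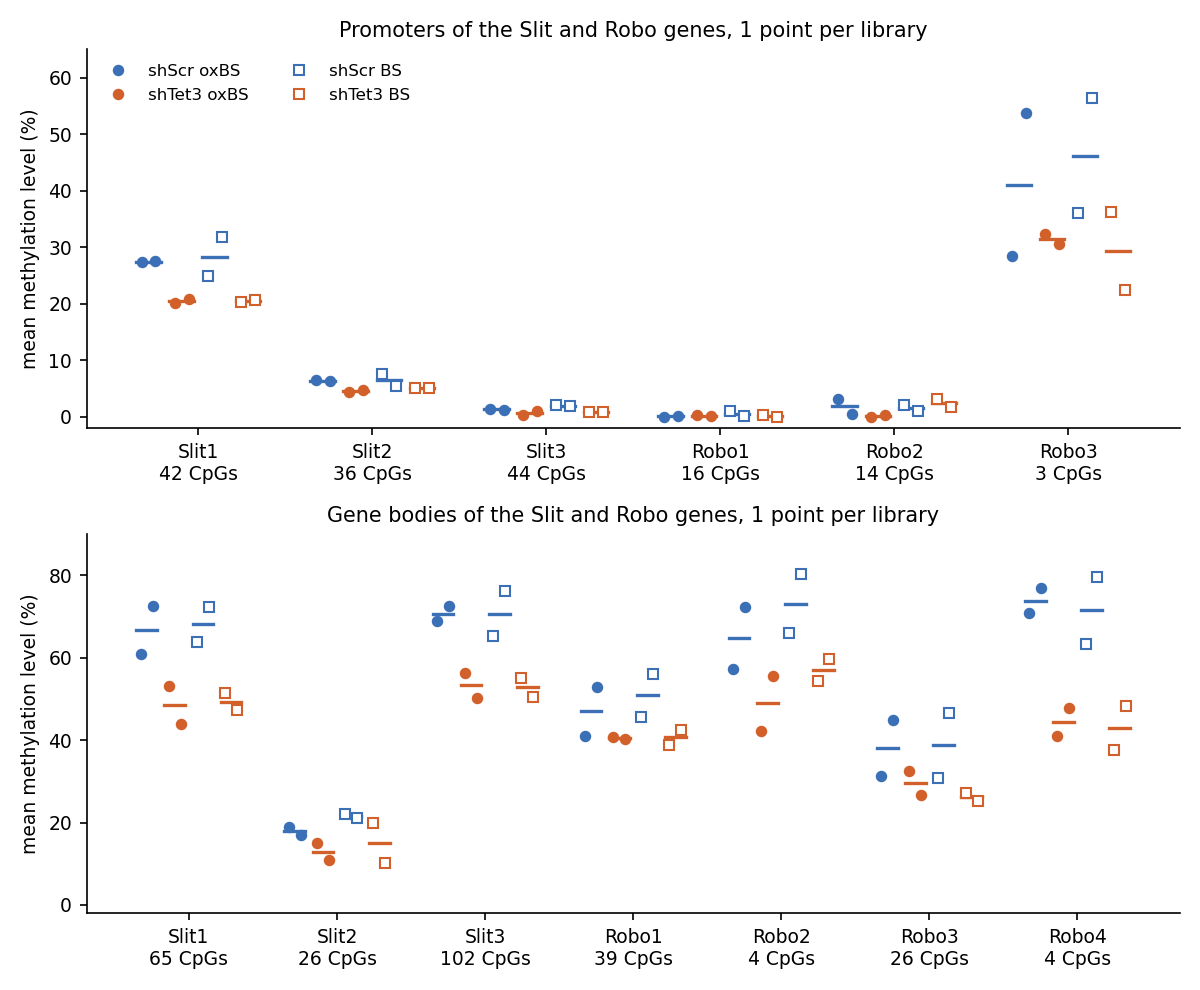
Mean methylation level (%) of the promoter (top) and body (bottom) of each gene, over CpGs covered 10 times or more in the 8 libraries, with 1 point per library and a bar at the mean of the 2 libraries of a group. Filled circles are oxBS, open squares BS, blue shScr and orange shTet3. The *Slit1* promoter lies between 20.1% and 31.8%, and the *Slit2*, *Slit3*, *Robo1* and *Robo2* promoters lie below 7.53%. Both shTet3 points lie below both shScr points of the same kind in every body, except that of *Robo3* in oxBS. This was also so in 71.9% of all gene bodies tested in oxBS and 73.3% in BS.

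Most of the family's difference between shTet3 and shScr lay in gene bodies. A CpG was called when logistic regression on the counts gave a q below 0.01 over all CpGs of the series and the pooled levels differed by over 10 percentage points. In oxBS, 86 of 492 member CpGs (17.5%) were called lower in shTet3, against 13.9% of all CpGs tested, and 0 were called higher, against 0.0814%. In BS, 104 of 467 (22.3%) were called lower, against 13.8%, and 0 higher, against 0.0621%. With the spread between replicates in the test, 0 member CpGs were called in either kind by the overdispersion-corrected F test or by limma, as were 0 of all CpGs. With 2 libraries per group these tests have little power over so many CpGs, so 0 calls cannot show that levels did not differ. At an unadjusted p under 0.05 and a difference over 10 percentage points, limma gave 63 oxBS members lower (12.8%, beside 8.67% of all CpGs) and 2 higher, and the F test gave 20 lower (4.07%, beside 1.95%) and 0 higher. Without shScr replicate 2, the logistic calls were 46 lower and 3 higher in oxBS, beside 5.90% and 0.444% of all CpGs, and 37 lower and 1 higher in BS, beside 4.99% and 0.302%. By region, 5 of 172 promoter CpGs and 77 of 310 body CpGs were called lower in oxBS (2.91% and 24.8%), beside 2.00% and 21.7% over all protein-coding genes. In BS these were 9 of 166 and 90 of 289 (5.42% and 31.1%), beside 1.86% and 22.1%. Both shTet3 libraries lay below both shScr libraries at 203 oxBS members, against 26.3% of all CpGs, and above at 11, against 2.04%. In BS these counts were 212, against 26.1%, and 9, against 1.96%.

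More calls fell in the classes of higher methylation. Of 157 members with a mean oxBS level below 10%, 1 was called lower (0.637%), beside 0.177% of all CpGs of that level. Of 84 members between 10% and 40%, where the *Slit1* promoter lies, 7 were called lower (8.33%), beside 14.1% of all. Of 251 members at 40% or more, 78 were called lower (31.1%), beside 35.5% of all such CpGs, and their median differences were −16.6 and −16.5 percentage points. In BS the same class gave 93 of 234 members (39.7%), beside 36.6%. Members at 40% or more made up 51.0% of the family and 34.9% of all CpGs tested in oxBS.

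**Figure D2:**
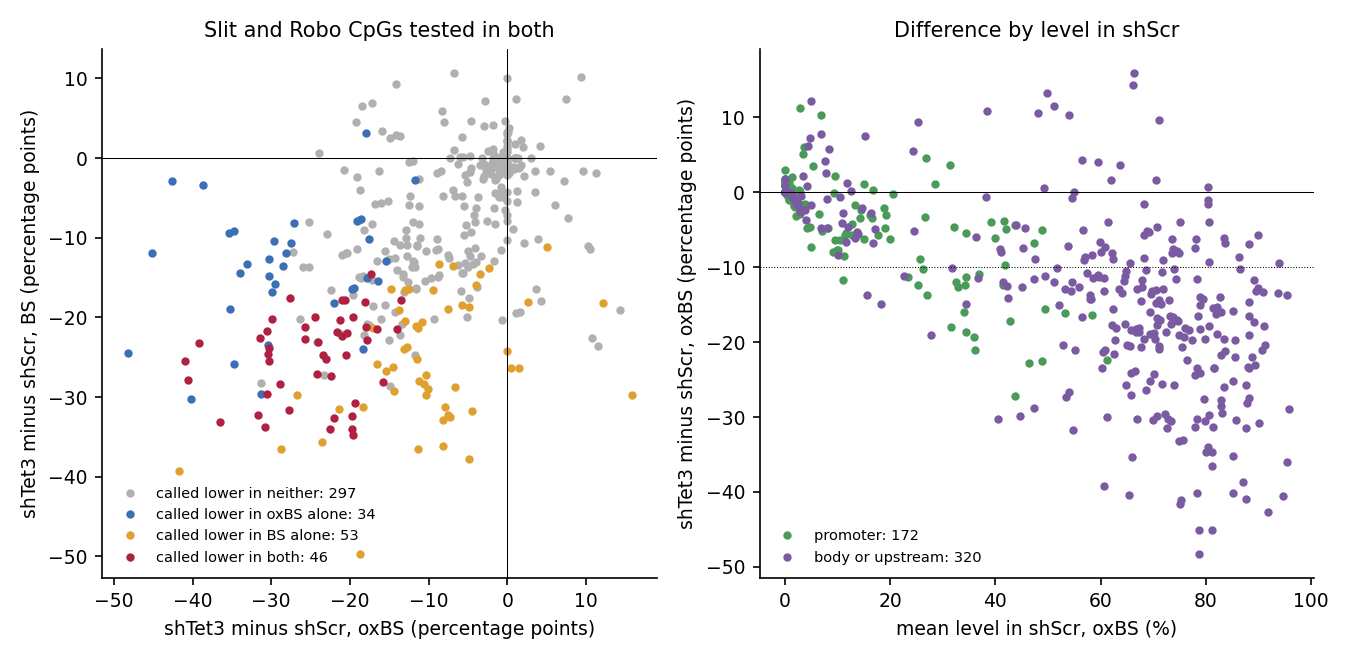
Left, difference between shTet3 and shScr (percentage points) of each of the 430 Slit and Robo CpGs tested in both kinds of library, oxBS on the x axis and BS on the y axis, coloured by the calls. Right, the oxBS difference against the mean shScr oxBS level (%), for 172 promoter and 320 body or upstream CpGs, with a dotted line at −10. Of the 80 CpGs called lower in oxBS, 46 were also called in BS, and CpGs of low level cluster at 0.

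The calls of the 2 kinds of library, taken to share DNA samples by number, coincided in part. Of the 430 CpGs tested in both, 80 were called lower in oxBS and 99 in BS, and 46 were called in both, which is 57.5% of the oxBS calls and 46.5% of the BS calls. Over all 612975 CpGs of the series these shares were 49.2% and 48.5%. The sign was shared more often than the call: 79 of the 80 oxBS calls had a lower BS level in shTet3 too, and 92 of the 99 BS calls had a lower oxBS level (98.8% and 92.9%, beside 96.2% and 96.4% over all CpGs). The exception among the oxBS calls lay in the *Slit1* promoter.

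*Slit1* (ENSMUSG00000025020, chr19:41674747-41818155, minus strand) encodes the ligand expressed most in the nervous system. Its 47 promoter CpGs tested in oxBS had a mean of 29.0% and 27.6% in the shScr libraries against 21.1% and 21.2% in the shTet3 libraries. Both shTet3 libraries lay below both shScr libraries, as did 27.4% of 12671 gene promoters, and the difference of −7.11 percentage points stood beside a median of −0.118 over all promoters. Most promoters have a far lower level than this one. Over all CpGs tested with a mean level between 10% and 40%, where this promoter lies, the median difference was −7.67 in oxBS and −7.62 in BS. In BS the 42 tested CpGs averaged 24.9% and 31.8% in shScr against 20.3% and 20.7% in shTet3, again without overlap, as in 29.3% of promoters. The BS difference of −7.83 ± 3.87 (SE) percentage points had an adjusted p of 0.756 in limma over all promoters, and no gene promoter of the series passed 0.05. With 2 libraries against 2, the smallest p of an exact permutation test is 0.33 (two-sided).

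Across the *Slit1* promoter the level changed in steps. The 4 CpGs at −307 to −251 bases from the first TSS averaged 39.8% and 51.3% in the shScr oxBS libraries. The 14 CpGs at 21 to 152 bases inside the first exon averaged 19.5% and 18.1%, and the 17 CpGs at 196 to 304 bases averaged 25.9% and 29.8%. In the first intron, the 6 CpGs at 462 to 540 bases returned to 42.6% and 30.7%. The shTet3 oxBS libraries had 38.0% and 34.8%, 16.5% and 14.9%, 17.5% and 22.2%, and 26.4% and 21.8% in the same 4 stretches. In oxBS they lay below both controls in each. In BS the stretch of 17 CpGs overlapped, at 20.5% and 31.0% in shScr against 19.2% and 23.7% in shTet3, and the other stretches were separate.

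The promoter calls of *Slit1* fell on different CpGs in the 2 kinds of library. Of 42 CpGs tested in both, 2 were called lower in oxBS and 7 in BS, and 0 in both. Over all promoter CpGs of protein-coding genes the shares were 2.00% and 1.86%. Among all CpGs with a mean level between 10% and 40% they were 14.1% and 13.8%. The oxBS calls lay 526 bases (41817629, first intron) and 248 bases (41817907, untranslated part of the first exon) downstream of the first TSS. The first intron stretch and the 30 bases around the exon call are printed on the gene's strand, with capitals on the CpGs listed in the tables.
Slit1 first intron, chr19:41817605-41817704: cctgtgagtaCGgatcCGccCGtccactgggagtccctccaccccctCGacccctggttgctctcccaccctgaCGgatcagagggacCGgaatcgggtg
Slit1 first exon, chr19:41817893-41817922: CGaaCGggacaCGgCGaaggcaccatggCG
At 41817907 the BS libraries stood at 18.5% and 27.8% in shScr against 24.4% and 31.1% in shTet3, which overlapped, and the BS difference was 3.21 percentage points. The oxBS level there was 17.9% in shScr replicate 1 (95% Wilson interval 9.0% to 32.7%, 39 calls) and 45.1% in replicate 2 (34.0% to 56.6%, 71 calls). At 41817629 BS gave 23.5% and 30% in shScr against 34.1% and 8.8% in shTet3, also overlapping, beside 42.4% and 26.4%, then 20% and 11.1%, in oxBS. The BS call with the largest promoter difference lay 251 bases upstream of the first TSS (41818406), with 45.5% and 41.8% in shScr BS against 9.1% and 12.9% in shTet3 BS (q = 3.68e-04). In oxBS that CpG had 44.4% and 42.9% in shScr against 48.1% and 29.8% in shTet3, which overlapped.

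**Figure D3:**
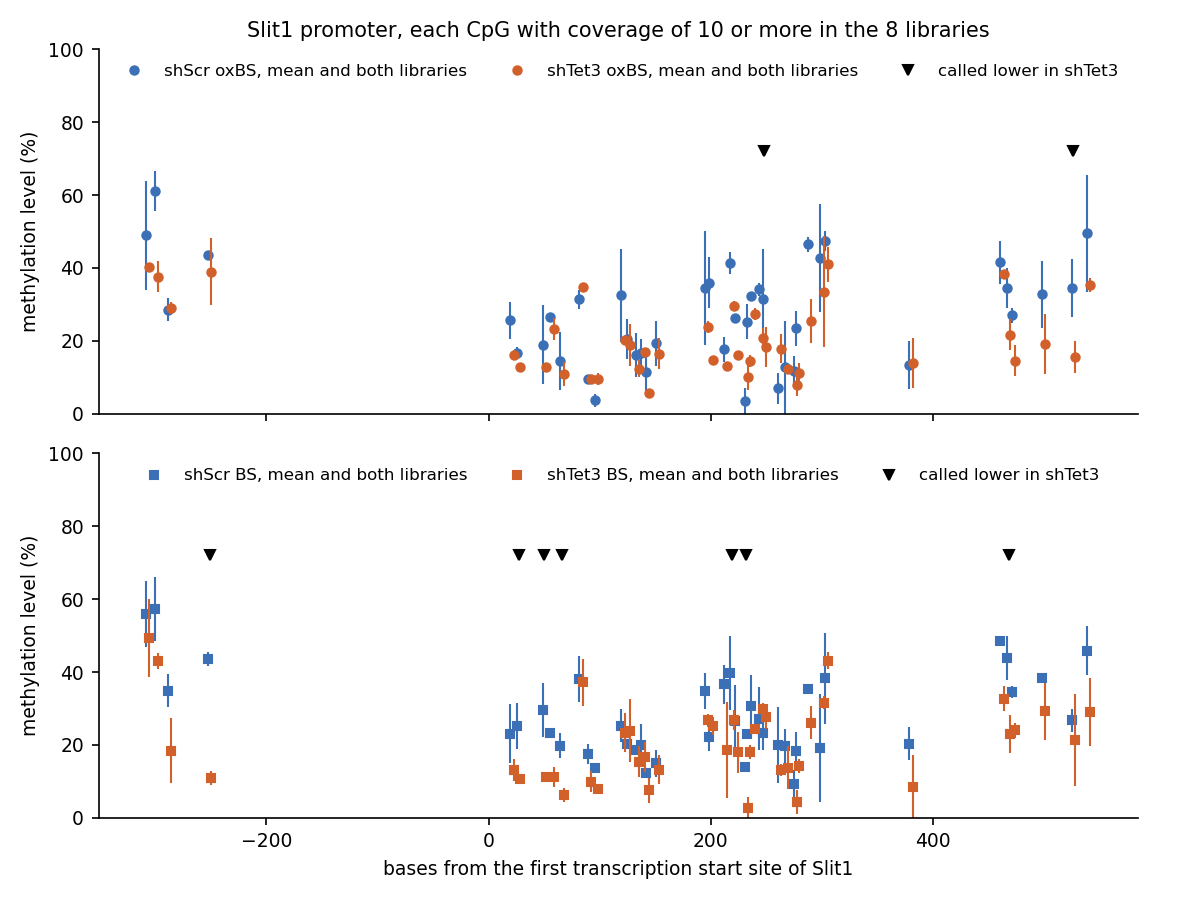
Methylation level (%) of each *Slit1* promoter CpG with a coverage of 10 or more in the 8 libraries, against its distance in bases from the first TSS, in oxBS (top) and BS (bottom). Symbols are means of 2 libraries, lines join the 2 libraries of a group, and triangles mark CpGs called lower in shTet3. The 2 triangles of the oxBS panel and the 7 of the BS panel mark different CpGs, and lines of one group are often as long as the gap between groups.

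Outside its promoter *Slit1* held blocks of calls shared by both kinds. A block of 4 CpGs at −3453 to −3392 bases from the first TSS, and a block of 6 CpGs in an intron 55257 to 55326 bases downstream, are printed on the gene's strand with listed CpGs in capitals, since each is a single short stretch in which neighbouring CpGs were called together.
Slit1 upstream block, chr19:41821537-41821619: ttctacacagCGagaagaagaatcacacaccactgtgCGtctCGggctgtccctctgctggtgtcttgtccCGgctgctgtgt
Slit1 intron block, chr19:41762819-41762909: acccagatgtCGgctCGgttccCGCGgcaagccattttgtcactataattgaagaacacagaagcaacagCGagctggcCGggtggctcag
The upstream block averaged 83.0% and 87.1% in shScr oxBS against 68.3% and 59.9% in shTet3 oxBS. In BS it averaged 81.7% and 86.9% in shScr against 52.3% and 63.4% in shTet3. Groups did not overlap in either kind, and 3 of the 4 CpGs were called lower in oxBS and all 4 in BS. The intron block averaged 68.0% and 80.5% in shScr oxBS against 54.3% and 44.6% in shTet3 oxBS, with BS means of 69.4% and 79.6% against 55.6% and 50%. All 6 of its CpGs were called lower in both kinds, at coverages of 87 to 180. The 7 upstream CpGs of *Slit1* tested in oxBS averaged 76.9% and 84.2% in shScr against 62.2% and 55.6% in shTet3, separate as in 52.3% of 3197 upstream regions, of which 2.28% lay above. In BS the 10 tested had a difference of −18.2 ± 6.73 (SE) percentage points and a limma adjusted p of 0.359, separate as in 53.5% of upstream regions, with 2.83% above. The largest oxBS difference of the gene with separate groups, −48.2 percentage points, lay in an intron 55184 bases downstream of the first TSS (41762971), at 86.5% and 70.8% in shScr against 41.2% and 21.2% in shTet3. In BS this CpG had 57.1% and 75.0% in shScr against 39.6% and 35.3%, a difference of −24.4 with a q of 0.0305.

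Over the whole body of *Slit1*, 26 of 76 CpGs were called lower in oxBS and 29 of 74 in BS (34.2% and 39.2%). Over all protein-coding genes these shares were 21.7% and 22.1%. The BS mean of the *Slit1* body was 65.3% and 72.6% in shScr against 51.6% and 47.4% in shTet3, without overlap, as in 73.3% of 10923 gene bodies. The difference of −19.5 ± 7.37 (SE) percentage points had a limma adjusted p of 0.214, and the median over all bodies was −12.5. In oxBS the body difference was −18.1, with 61.1% and 71.9% in shScr against 52.2% and 44.6% in shTet3. Groups were separate in oxBS as well, as in 71.9% of 11000 bodies. The 11 CpGs of its last exons averaged 61.1% and 83.5% in shScr oxBS against 61.6% and 62.4% in shTet3 oxBS, which overlapped, with 3 called lower. In BS they averaged 73.8% and 82.1% against 56.7% and 60.7%, which were separate, with 6 called lower.

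A pair of *Slit1* introns each held a CpG with no methylated call in any library although its neighbours were methylated. They lay 24454 bases (41793701) and 73505 bases (41744650) downstream of the first TSS, and are shown with their neighbours to place the unmethylated CpG within its sequence.
Slit1 24 kb intron site, chr19:41793668-41793720: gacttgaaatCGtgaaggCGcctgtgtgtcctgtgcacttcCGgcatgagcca
Slit1 73 kb intron site, chr19:41744640-41744676: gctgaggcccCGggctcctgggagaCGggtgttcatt
The middle capital pair of the first sequence and the last of the second are those CpGs. The first had 0 methylated of 387 calls, which allows a level of up to 0.775%, and its 2 neighbours within 50 bases averaged 58.9%. The second had 0 of 251 calls, an upper limit of 1.20%, beside a neighbour at 57.7%. In the series, 942 CpGs had 0 methylated calls beside neighbours averaging over 40%. Whether the cells carry the reference base at these sites was not tested.

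*Slit2* (ENSMUSG00000031558, chr5:48374394-48697521, plus strand) is the ligand most used in studies of midline repulsion. Its promoter changed from unmethylated to methylated over less than 2 kb. The 10 CpGs from 19 bases upstream to 56 bases downstream of the first TSS averaged between 0.0% and 0.4% in every library. The 2 CpGs 1823 and 1838 bases downstream of that TSS, within reach of later start sites, averaged 44.3% and 40.8% in shScr oxBS against 22.4% and 18.1% in shTet3 oxBS. Their BS means were 45.0% and 46.2% in shScr against 20.3% and 19.2% in shTet3, so groups were separate in both kinds. They were the 2 promoter calls of *Slit2* in oxBS and in BS, with BS differences of −17.8 (q = 0.00143) and −33.9 (q = 2.18e-08) percentage points. Being the family's one promoter site called in both kinds, the 30 bases are printed on the plus strand, with the pair in capitals.
Slit2 promoter pair, chr5:48376211-48376240: actgccCGgtttttacacaacCGaaagctc
Averaged over the promoter, *Slit2* had 7.32% and 5.35% in shScr BS against 4.96% and 5.24% in shTet3 BS, and 8.16% and 7.87% against 5.59% and 5.51% in oxBS. The BS difference of −1.24 ± 1.22 (SE) percentage points had a limma adjusted p of 0.777.

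The measured body of *Slit2* was mostly a lowly methylated stretch of 21 CpGs at 2967 to 3155 bases, which averaged 16.0% and 10% in shScr oxBS against 12.7% and 8.3% in shTet3 oxBS. Those groups overlapped. The single oxBS call of the body lay in an intron at 48430760, with 40.9% and 40% in shScr against 11.8% and 9.4% in shTet3, while BS gave 30.4% and 34.6% against 21.4% and 17.6% (q = 0.410). In total 1 of 28 body CpGs was called lower in oxBS and 2 of 26 in BS (3.57% and 7.69%). Over all protein-coding genes these shares were 21.7% and 22.1%. The microRNA hairpin Mir218-1 lies within *Slit2* and Mir218-2 within *Slit3*, but the nearest listed CpG was 27.1 kb and 8.4 kb away, so these tables hold no value for either.

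*Slit3* (ENSMUSG00000056427, chr11:34934726-35522009, plus strand), the ligand with the widest expression outside the nervous system, had an almost unmethylated promoter and a methylated body. Of its 30 CpGs from 24 to 203 bases downstream of the TSS, the highest value in any library was 10.5%, and the means of the 8 libraries lay between 0.3% and 2.2%. In the promoter, 0 of 48 CpGs were called in oxBS and 0 of 44 in BS. In the body, 38 of 129 CpGs were called lower in oxBS and 39 of 109 in BS (29.5% and 35.8%). Over all protein-coding genes the shares of body CpGs were 21.7% and 22.1%. The counts were the highest of the family, as was the number of body CpGs tested. *Slit1* (34.2% and 39.2%) and *Robo4* (75% and 66.7%, over few CpGs) had higher shares in both kinds, and *Robo2* in BS alone (40%). The body averaged 65.1% and 69.7% in shScr oxBS against 53.0% and 47.6% in shTet3 oxBS, without overlap. In BS it averaged 63.9% and 74.2% in shScr against 53.6% and 49.1% in shTet3. The BS difference was −17.7 ± 7.55 (SE) percentage points with a limma adjusted p of 0.214.

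The *Slit3* calls were spread along its introns. A block of 5 CpGs about 482 kb into the gene is printed on the plus strand as the clearest of them, with listed CpGs in capitals.
Slit3 intron block, chr11:35416952-35417019: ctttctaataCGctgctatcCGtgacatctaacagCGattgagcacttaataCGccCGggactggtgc
It averaged 83.6% and 84.8% in shScr oxBS against 65.9% and 47.4% in shTet3 oxBS, and all 5 CpGs were called lower. In BS it averaged 71.5% and 75.4% in shScr against 60.3% and 44.6% in shTet3, with 3 of the 5 called. The largest oxBS difference with separate groups was −40.6 percentage points in another intron (35267806), where shScr had 100.0% and 89.4% and shTet3 had 52.5% and 55.9%. BS gave 84.9% and 90% against 61.1% and 56.2% there (difference −27.9, q = 6.12e-05).

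*Robo1* (ENSMUSG00000022883, chr16:72663394-73046340, plus strand) is a main receptor of midline repulsion. Its promoter was the least methylated of the family, at 0.0% and 0.2% in shScr oxBS, 0.3% and 0.1% in shTet3 oxBS, 1.0% and 0.2% in shScr BS, and 0.4% and 0.0% in shTet3 BS. None of its 20 promoter CpGs in oxBS or 16 in BS was called. The body averaged 45.4% and 56.8% in shScr oxBS against 43.8% and 43.2% in shTet3 oxBS, and 47.6% and 58.8% against 40.3% and 44.4% in BS. Groups were separate in both kinds by a margin smaller than the gap between the shScr replicates. The BS difference was −10.8 ± 8.55 (SE) percentage points with a limma adjusted p of 0.345. Without shScr replicate 2 it was −5.21, and −1.94 in oxBS. By CpG, 6 of 43 CpGs were called lower in oxBS and 8 of 43 in BS (14.0% and 18.6%). Over all protein-coding genes the shares of body CpGs were higher, at 21.7% and 22.1%. The CpG of *Robo1* with the largest oxBS difference, −42.6 percentage points (72700708), had 83.3% and 86.7% in shScr BS against 85.7% and 82.1% in shTet3 BS, a BS difference of −2.86.

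At one *Robo1* intron the shScr replicates differed far more than the shRNA groups. The stretch lies about 331 kb into the gene and is printed on the plus strand, with listed CpGs in capitals.
Robo1 intron block, chr16:72994250-72994300: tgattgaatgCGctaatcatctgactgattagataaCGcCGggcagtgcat
Over its 3 CpGs, shScr replicate 1 averaged 2.8% in oxBS and 5.3% in BS, and shScr replicate 2 averaged 40.3% and 39.5%. The shTet3 libraries lay between them, at 23.2% and 20.3% in oxBS and 18.8% and 20% in BS. None of the 3 was called between shTet3 and shScr.

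Such a gap between control replicates, seen in both oxBS and BS, was found elsewhere in the family. With a gap of over 25 percentage points in both kinds as the mark, shScr replicate 2 exceeded replicate 1 at 19 of the 430 members (4.42%), beside 3.30% of all CpGs, and replicate 1 exceeded replicate 2 at 0, beside 0.419%. *Robo1* and *Slit3* held 6 each, *Slit1* and *Robo3* 3 each and *Slit2* 1. In shTet3 the counts were 1 with replicate 2 higher, beside 0.428%, and 4 with replicate 1 higher, beside 0.246%. The widest gap in shScr lay in a *Robo3* intron (37234881), at 17.2% and 91.7% in oxBS and 14.3% and 75.8% in BS.

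**Figure D4:**
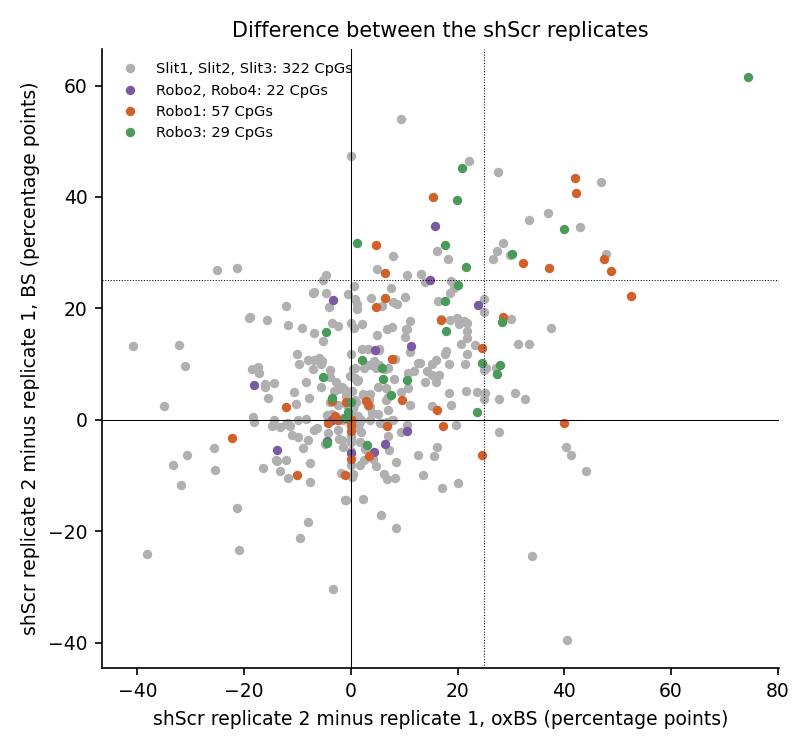
Difference between shScr replicate 2 and replicate 1 (percentage points) at each of the 430 Slit and Robo CpGs covered 10 times or more in the 8 libraries, oxBS on the x axis and BS on the y axis, with dotted lines at 25. The upper right corner holds 19 CpGs, 6 of them of *Robo1* (orange) and 3 of *Robo3* (green).

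*Robo2* (ENSMUSG00000052516, chr16:73892551-74412070, minus strand), which acts with Robo1 in repulsion, was measured at few CpGs. Its promoter averaged 2.94% and 0.57% in shScr oxBS against 0.00% and 0.28% in shTet3 oxBS. In BS it averaged 2.74% and 0.92% against 3.03% and 2.11%, so groups overlapped in BS. The one promoter call of oxBS (74411725) had 17.9% and 4.1% in shScr against 0.0% and 1.9% in shTet3, and 6.7% and 1.3% against 1.9% and 0.0% in BS (q = 0.436). In the body 1 of 4 CpGs was called lower in oxBS and 2 of 5 in BS, beside 21.7% and 22.1% over all protein-coding genes. The CpG called in both kinds (74128651) had 88.5% and 86.5% in shScr BS against 61.3% and 62.5% in shTet3 BS (q = 0.00865), and 70.0% and 80.5% against 20% and 58.3% in oxBS. It is printed on the minus strand with its CpG in capitals.
Robo2 intron CpG, chr16:74128641-74128662: gtagcgttacCGggaaaccaga

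*Robo3* (ENSMUSG00000032128, chr9:37223254-37240760, minus strand) held methylated and almost unmethylated CpGs within one short body. A stretch of 11 CpGs in a coding exon, about 12 kb from the first TSS, averaged 3.9% and 5.2% in shScr oxBS against 2.0% and 2.7% in shTet3 oxBS, and the highest single value in the 8 libraries was 19.0%. About 1.2 kb further along the gene, 2 CpGs of another coding exon averaged 56.8% and 80.0% in shScr oxBS against 60.7% and 43.5% in shTet3 oxBS. Both stretches are printed on the minus strand, with listed CpGs in capitals, to set the low one beside the high one.
Robo3 low exon, chr9:37228501-37228647: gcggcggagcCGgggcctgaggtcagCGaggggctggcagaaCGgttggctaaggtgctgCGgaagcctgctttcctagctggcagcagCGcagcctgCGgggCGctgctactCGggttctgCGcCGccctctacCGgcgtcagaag
Robo3 methylated exon, chr9:37227294-37227339: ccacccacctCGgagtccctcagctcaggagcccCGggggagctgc
In BS the low stretch averaged 3.5% and 6.9% in shScr against 3.7% and 2.1% in shTet3, and the methylated pair 66.7% and 83.4% against 41.5% and 47.9%. Both CpGs of that pair were called lower in BS (q = 4.46e-05 and 9.04e-07) and 1 of them in oxBS, while the oxBS means of the pair overlapped. The low stretch held 0 calls in either kind, at coverages of 32 to 207.

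The 3 promoter CpGs with a coverage of 10 or more in all libraries overlapped between groups in oxBS. They averaged 28.4% and 53.7% in shScr oxBS against 32.4% and 30.6% in shTet3 oxBS. Over the same 3 CpGs the BS means were 36.1% and 56.3% in shScr against 36.3% and 22.4% in shTet3, which also overlapped. Over the 12 promoter CpGs tested in BS the means were 15.1% and 15.7% in shScr against 11.0% and 12.1% in shTet3. The body averaged 31.3% and 44.9% in shScr oxBS against 32.5% and 26.7% in shTet3 oxBS, also overlapping. In BS it averaged 30.8% and 46.6% against 27.2% and 25.2%, with a difference of −12.5 ± 6.94 (SE) percentage points and a limma adjusted p of 0.241. Without shScr replicate 2, the *Robo3* body difference was −4.59 in BS and −1.66 in oxBS. In the body 2 of 26 CpGs were called lower in oxBS and 6 of 26 in BS (7.69% and 23.1%). Over all protein-coding genes these shares were 21.7% and 22.1%.

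*Robo4* (ENSMUSG00000032125, chr9:37209482-37221608, plus strand) had a body difference that rested on few CpGs. Its CpG-poor promoter was covered by 1 CpG in oxBS, at 44.4% and 42.9% in shScr against 19.0% and 14.3% in shTet3, with 21 to 36 calls per oxBS library. The 4 CpGs of a coding exon near the start of the gene are the whole of its body in oxBS and are printed on the plus strand, with those CpGs in capitals.
Robo4 exon block, chr9:37210310-37210438: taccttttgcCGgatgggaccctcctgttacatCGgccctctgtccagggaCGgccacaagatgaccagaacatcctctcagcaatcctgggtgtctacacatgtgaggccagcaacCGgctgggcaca
They averaged 71.0% and 76.8% in shScr oxBS against 41.0% and 47.9% in shTet3 oxBS, and 63.4% and 79.6% against 37.7% and 48.4% in BS. Groups were separate in both kinds, and 3 of the 4 CpGs were called lower in each. The oxBS body difference was −29.4 ± 7.51 (SE) percentage points, and 1.32% of 11000 gene bodies had a lower one. Over 6 CpGs in BS it was −30.3 ± 8.79 (SE), with a limma adjusted p of 0.214. At a coverage minimum of 5 the body held 9 CpGs and the oxBS difference was −15.2, with −27.6 in BS. Without shScr replicate 1, which leaves 1 control library, the BS adjusted p was 0.0499, when 2732 of 10923 gene bodies were called lower. The largest CpG difference of the block (37210343) was −36.5 in oxBS and −33.1 in BS (q = 1.81e-06).

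Among whole regions, 0 of 13 promoters and bodies of the family passed an adjusted p of 0.05 in limma in either kind, as did 0.00% of all promoters and bodies. No member promoter or body had both shTet3 libraries above both shScr libraries, as had 7.14% of promoters and 0.791% of bodies in oxBS and 6.62% and 0.751% in BS. In BS an unadjusted p under 0.05 was reached by the *Slit1* body, the *Robo4* body and the *Slit1* upstream region, beside 2495 bodies lower and 14 higher of 10923 and 411 upstream regions lower and 8 higher of 3142.

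The difference of BS and oxBS estimates 5hmC. The paper reports that its own calls of this mark had a high false discovery rate. Over 155 promoter CpGs the difference was −0.10 and 1.24 percentage points for the shScr DNA and 0.71 and −0.03 for the shTet3 DNA. Over 266 body CpGs it was 0.31 and 2.51 in shScr and −1.05 and 1.06 in shTet3. Over all CpGs of the series it lay between 0.28 and 0.45. Bodies with BS above oxBS in both shScr replicates were those of *Robo2* (8.73 and 7.86, over 4 CpGs), *Robo1* (4.61 and 3.09) and *Slit2* (3.18 and 3.98). In shTet3 the *Robo2* body had 12.3 and 4.10, the *Robo1* body −1.81 and 2.34, and the *Slit2* body 4.80 and −0.781. In shScr, 1 of 452 members was called with BS above oxBS, against 0.33% of all CpGs, and 3 with BS below oxBS, against 0.170%, the direction opposite to that of 5hmC. In shTet3 the counts were 0 of 489 in either direction, against 0.0239% above and 0.0141% below. Both BS libraries lay below both oxBS libraries at 38 members in shScr, against 5.16% of CpGs, and at 53 in shTet3, against 7.19%, and above them at 63 and 64, against 6.54% and 8.76%.

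The one CpG with BS above oxBS lay in the first exon of *Slit1* (41818058), 97 bases from the TSS. It had 12.6% and 14.9% in shScr BS and 1.9% and 5.5% in shScr oxBS (q = 8.67e-04), and in shTet3 8.4% and 7.7% in BS and 11.1% and 7.9% in oxBS. Both shScr BS libraries lay above both shScr oxBS libraries, as at 6.54% of CpGs, while the shTet3 values overlapped. Of the 3 CpGs with BS below oxBS, the one in a *Robo3* coding exon (37225377) had 45.5% and 77.3% in BS and 86.4% and 87.5% in oxBS. That CpG was also the *Robo3* site with the largest oxBS difference between shTet3 and shScr, −38.7 percentage points, with −3.41 in BS. The others lay in introns of *Slit3* (35017913) and *Robo1* (72858936). No change of BS minus oxBS with the knockdown passed an adjusted p of 0.05 in limma for any member region, and the smallest adjusted p was 0.896 for promoters and 0.979 for bodies.

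Intracellular and co-receptor partners of the pathway were read from a list of 28 genes, among them the srGAP, Abl and Ena/VASP proteins that link Robo to the cytoskeleton. Of 25 partners with a measured body, 24 had a lower mean in shTet3 oxBS and in 20 both shTet3 libraries lay below both controls, beside 71.9% of all bodies. Their median body difference was −8.79 percentage points in oxBS and −10.6 in BS, beside −12.4 and −12.5 over all bodies. Of 24 partner promoters 9 were separate and lower in oxBS, beside 27.4% of all promoters, with a median of −0.178. None passed the adjusted threshold in limma in either kind. Per CpG, 184 of 877 body CpGs and 6 of 942 promoter CpGs of the partners were called lower in oxBS, and 0 higher, beside 21.7% of body CpGs and 2.00% of promoter CpGs over all protein-coding genes.

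The family's own genes were left out when promoters were ranked by the likeness of their profile to that of *Slit1*. By the mean absolute difference over the 8 libraries among 9942 promoters of 10 or more CpGs, the nearest 3 were *Fanca* at 1.35 percentage points, *Tox2* at 1.40 and *Plec* at 1.70. *Tox2* averaged 26.2% and 27.8% in shScr oxBS against 20.2% and 19.7% in shTet3 oxBS.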

How the data were processed

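Genomic DNA of 8 samples was profiled by oxidative reduced representation bisulfite sequencing. The authors trimmed reads with Trim Galore, aligned them to mm9 with Bismark and deposited one methylKit table per library, in which coverage is a count of calls per CpG and the level is a percent of methylated calls. All 8 deposited tables list the same CpGs with a coverage of 5 or more. Methylated counts were rebuilt from coverage and percent. Positions were checked as CG in mm9, and genes were taken from GENCODE vM1.

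Each CpG with a coverage of 10 or more in the 4 libraries compared was tested by logistic regression (likelihood ratio test, scipy 1.17.1) with Benjamini-Hochberg adjustment over the series. Region means (3 or more CpGs) of all protein-coding genes were compared with limma 3.58.1 in R 4.3.3. Both procedures were tested on simulated data, which for logistic regression held counting error and no other spread between libraries of a group. That simulation cannot show how the calls behave under such spread. BS and oxBS libraries of one number were taken to share a DNA sample, which their titles do not state. Over all CpGs, their deviations from the group mean correlated at 0.509 in shScr and 0.246 in shTet3. Over the member CpGs these values were 0.389 and 0.0917.

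The 7 genes, the partner list and the stretches shown were chosen with earlier results of these data known. CpGs were named by rule: the oxBS calls of the *Slit1* promoter, and for each gene the largest oxBS difference with separate groups and the largest BS excess in shScr. Other CpGs and stretches were picked after their values were seen.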

Additional observations from a re-analysis of the deposited data

How the results depend on the processing

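Coverage minimums of 5 or 20, removal of the CpGs of highest coverage, Fisher's exact test and the replicate block kept the counts lower in shTet3 within 1.5 times of 86 in oxBS and 104 in BS, with 87 and 107 under the replicate block. The overdispersion-corrected F test and limma gave 0 for each of these counts and for the 1 CpG above and 3 below in shScr BS against oxBS, and a coverage of 20 left 1 below. Neither test called any CpG of the series, so with 2 libraries per group these 0 counts cannot show that levels did not differ. The cause was not tested. Same-numbered shScr and shTet3 libraries did not deviate together (r of −0.0361 in oxBS and −0.0282 in BS). With 2 libraries per group this cannot decide whether the numbers pair them, and the labels do not say. Under the replicate block 2 in place of 3 CpGs had BS below oxBS in shScr.

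Leaving out one library gave 46 to 109 lower and 0 to 3 higher members in oxBS, and 37 to 132 lower and 0 to 1 higher in BS. The lowest counts came without shScr replicate 2, and those without shTet3 replicate 2 (55 in oxBS, 62 in BS) and without shTet3 BS replicate 1 (66) also moved by over 1.5 times. BS against oxBS ranged from 0 to 10 below and 0 to 19 above in shScr, and 0 to 3 in either direction in shTet3. Member regions past the limma threshold ranged from 0 to 1 in oxBS and 0 to 3 in BS, all without shScr replicate 1, where a lone library was assumed to vary like the other group. With one library left out, BS body differences ranged from −11.4 to −1.65 in *Slit2*, −16.4 to −5.21 in *Robo1*, −26.7 to −10.5 in *Robo2* and −20.4 to −4.59 percentage points in *Robo3*, the smallest without shScr replicate 2 except in *Slit2*, where it was without shTet3 replicate 2. Differences turned sign for the *Robo1* promoter in oxBS with wide promoters (−0.268) and in BS with one library left out (−0.815 to 0.0321), the *Robo2* promoter in BS at a coverage of 20 (−0.0266) and with one library left out (−0.172 to 1.65), and the *Robo3* promoter in oxBS with one library left out (−22.2 to 3.07). At a coverage minimum of 5 the *Robo4* body difference in oxBS was −15.2, below those of *Slit1* (−19.1) and *Slit3* (−17.1) in size. The change of BS minus oxBS turned for *Slit2* promoter (−0.204), *Slit3* body (0.549) and *Robo2* body (0.629) with read weighting, and for *Robo2* body at a coverage of 20 (0.675). Depth limits single CpGs, most of all those near the coverage minimum.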
